A study of Mus musculus with 2 samples.

Results

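Splicing factors and proteins of small nuclear ribonucleoproteins (snRNPs) were examined in neutrophils cultured with or without tumor exosomes. Genes were chosen by name, as features beginning with Srsf and a digit, Hnrnp, Sf3a or Sf3b and a digit, Snrp, or Prpf and a digit, with names ending in -ps left out. This gave 64 of the 35522 features, of which 59 had at least 0.25 RPKM (a read count scaled to transcript length and to all mapped reads of the library) in both samples, out of 9698 genes that passed the same minimum. These 59 comprised 10 Srsf, 18 Hnrnp, 8 Sf3, 11 Snrp and 12 Prpf genes. The 5 features below the minimum were Snrpn, Srsf12, Prpf40b and the pseudogenes Snrp1c-ps1 and Snrp1c-ps2, both listed at 0. Bone marrow neutrophils sorted as CD11b+, Ly-6G high and Ly-6C low to negative were kept in RPMI-1640 with 10 ng/ml GM-CSF, a myeloid growth factor, in both groups. The control group received PBS and the other received tumor exosomes at 20 μg/ml, each for 3 days. The exosomes came from cancer stem cells enriched from CT26, a mouse colon carcinoma line, as spheres in stem cell medium (sphere-derived cancer stem cells, SDCSCs). According to the methods of the study the mice were Balb/C, 5 to 8 weeks old, and whether animals were pooled is not stated. Each group holds 1 library, so there is no replicate error, no p value is given, and every difference below is one between 2 libraries.

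Introns are removed from transcripts by the spliceosome, which is built from snRNPs, each made of a small nuclear RNA and proteins. A ring of Sm proteins sits on the small nuclear RNA of most of these particles and is loaded there by the SMN complex. The SF3a and SF3b complexes belong to the U2 snRNP, which recognises the branch point, and several PRPF proteins belong to the particle that joins U4, U5 and U6. SR proteins (Srsf) mostly promote the use of exons they bind, and hnRNPs are abundant RNA-binding proteins that often oppose them. Mature neutrophils are short-lived cells with a condensed, segmented nucleus.

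The estimated depth was 66.0 M mapped reads in PBS and 79.1 M in the exosome library. For the 59 genes this corresponded to between 23.3 and 61648 reads in PBS, and no 95% counting interval of a fold change included a ratio of 1. These intervals rest on reads estimated from transcript lengths that may differ from those behind the RPKM. They cover counting error only, not variation between cultures or the scaling of the libraries. Fold changes compare the exosome library with PBS. A gene with 2-fold or more is called up, and one at 0.5 of the PBS level or below is called down. Among all 9698 genes 5.62% were called down and 31.5% up. Neutrophil marker genes were lower in the exosome library: 8 of 9 were called down, and their summed RPKM was 82894 in PBS and 30177 with exosomes (Ly6g itself 286.96 and 56.19). Of 9 monocyte and macrophage markers 5 passed the minimum and 3 of these were called up, and the sum of all 9 was 164 and 458 RPKM. Most of that sum came from Csf1r (58.1 and 152.64 RPKM), Cd68 (83.91 and 145.79) and Emr1 (20.91 and 151.51). None of these 9 was at 0, and none was lower with exosomes. The macrophage gene C1qa stood at 0.18 RPKM in PBS, below the minimum, and at 1.42 with exosomes. The 4 epithelial markers summed to 0.59 and 0.196 RPKM, with Krt8 at 0 in both libraries. Of the 4 proliferation markers Mki67 was at 5.62 and 3.91 RPKM. Ccnb1 (0.32 and 0.55 RPKM) and Top2a (0.71 and 1.14 RPKM) were 1.72- and 1.61-fold higher, neither called up. Cdk1, at 0.23 and 0.44 RPKM (1.91-fold), was below the minimum in PBS and not called. B cell markers summed to 74.5 and 47.5 RPKM. In bulk RNA a change in the share of a cell type and a change in RNA per cell cannot be told apart, and the part of these marker shifts in the splicing genes was not tested.

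The Snrp family had the highest fold changes of the 5 families. Of the 59 genes, 24 (40.7%) were called up and 0 were called down, while among all 9698 genes 31.5% were called up and 5.62% down. The Snrp family supplied 10 of these 24, with 10 of 11 genes up and a median log2 fold change of 2.08, that is, 4.24-fold. The other families lay lower, with 3 of 8 Sf3 genes, 4 of 12 Prpf genes, 5 of 18 Hnrnp genes and 2 of 10 Srsf genes up. Their medians were 0.82 for Sf3, 0.62 for Prpf, 0.58 for Srsf and 0.45 for Hnrnp, beside 0.53 for all genes. Without the Snrp family 14 of 48 genes (29.2%) were up, which is near the share in all genes. These 48 genes had a higher median level in PBS, 17.6 RPKM against 5.28 for all genes, and this share was not matched for level. At a stricter ratio of at least 4, the 8 genes up were 7 Snrp genes and Prpf19, against 8.52% of all genes. Counting any increase, 54 of 59 genes were higher with exosomes, against 73% of all genes. These counts move with the scaling of the libraries: once the all-gene median of 0.53 was subtracted, 14 splicing genes were up and 0 down, beside 1634 genes up and 1282 down in all, against 3056 and 545 as deposited. The direction of 18 of the 59 genes, 0 of them Snrp genes, turned under at least one such alternative. The lowest log2 fold change of a Snrp gene, 0.61 as deposited, was already above the 0.53 subtracted. How many of all genes turned was not counted.

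**Figure D1:**
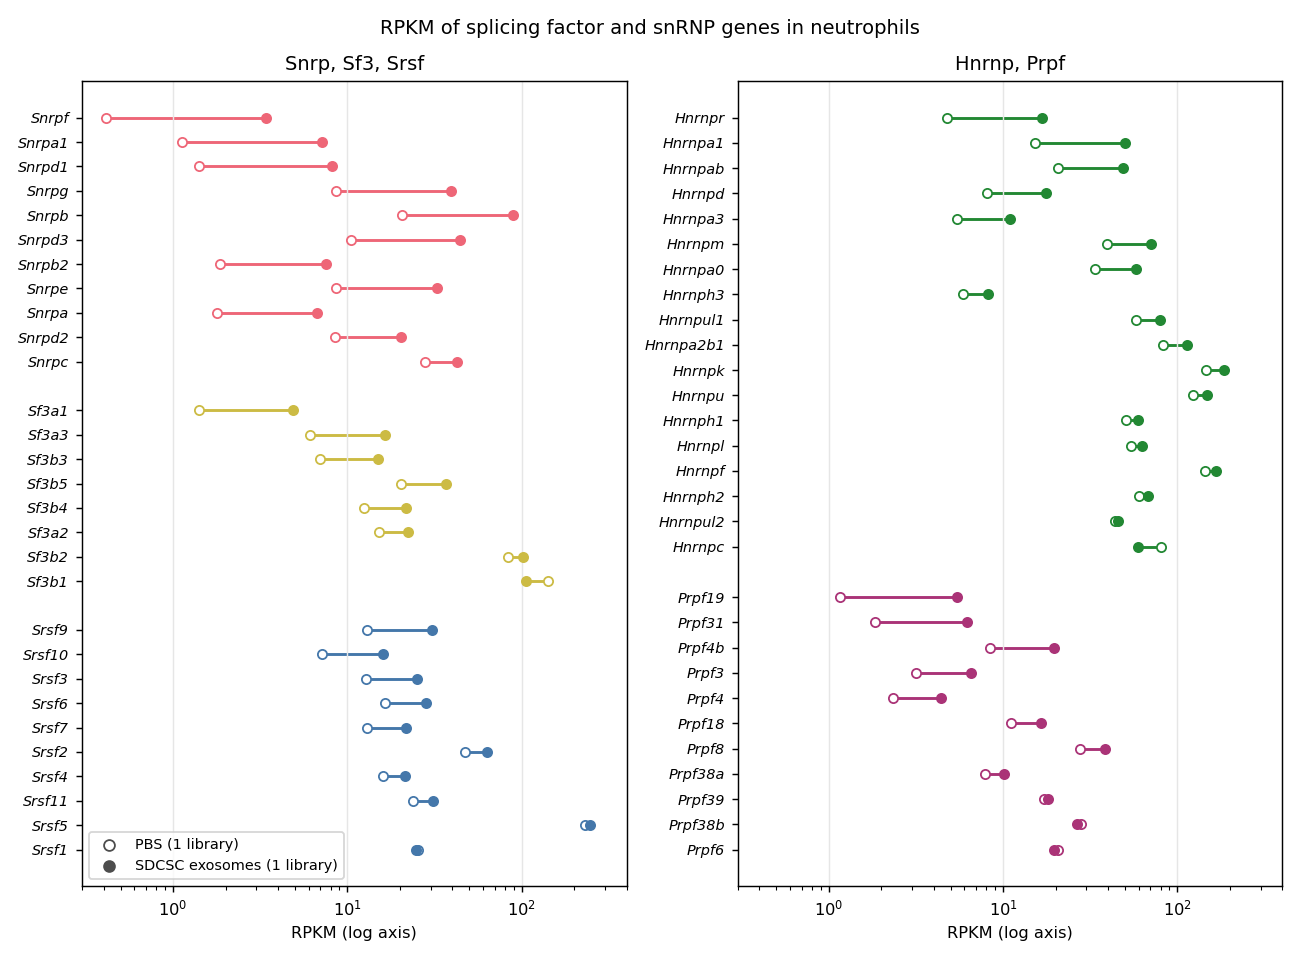
RPKM of each gene whose level is reported (x axis, log scale) in the PBS library (open circles) and the SDCSC exosome library (filled circles), by family, ordered from the largest to the smallest ratio. All 11 Snrp genes were higher with exosomes, whereas Sf3b1, Hnrnpc, Prpf38b, Prpf6 and Srsf1 were lower.

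**Figure D2:**
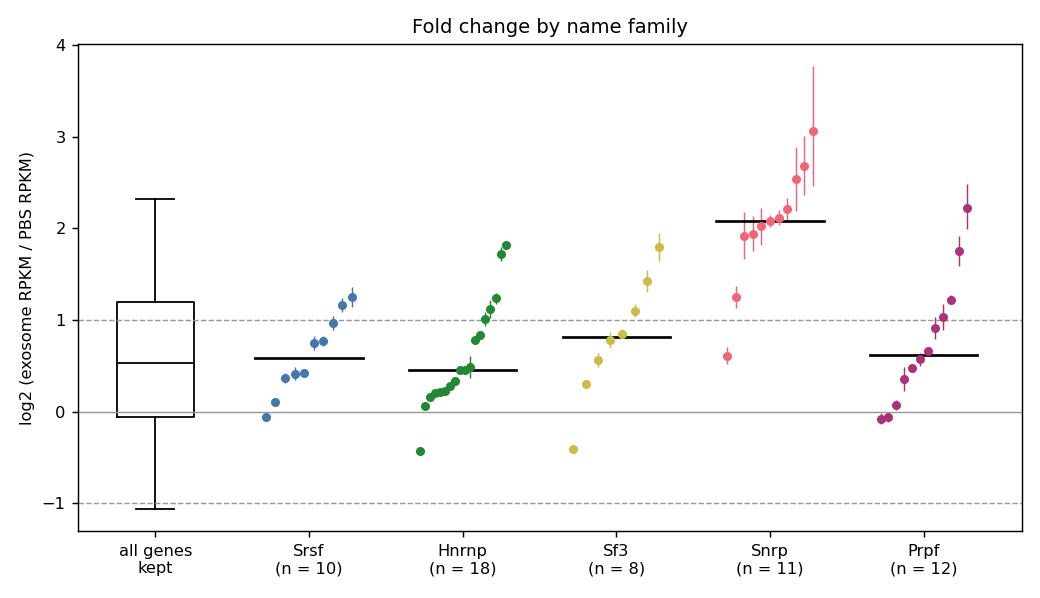
Log2 of the exosome over the PBS RPKM for each gene (points), with the exact 95% counting interval as error bars and the family median as a black line; the box gives the quartiles and median of all 9698 genes, its whiskers the 5th and 95th percentiles, and dashed lines the 2-fold limits. The Snrp median of 2.08 lies above the values of all Srsf, Hnrnp and Sf3 genes.

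The Sm ring supplied 7 of the 10 Snrp genes called up. Snrpf (chromosome 10, 93583029 to 93589706, minus strand, GRCm38) was at 0.41 RPKM in PBS and 3.43 with exosomes, or 3.06 on the log2 scale (counting interval 2.46 to 3.77). It rested on about 23.3 reads in PBS, the fewest of all 59 genes. Snrpd1 stood at 1.41 and 8.18 RPKM, 5.80-fold higher. Snrpg (chromosome 6, 86371304 to 86379328, plus strand) was at 8.56 and 39.52 RPKM (log2 fold change 2.21, counting interval 2.08 to 2.33). Their products are parts of one ring, while their RNA levels per length differed widely within each library.

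Snrpb (chromosome 2, 130171414 to 130179403, minus strand), which encodes the SmB proteins, had the highest level of the ring, with 20.47 RPKM in PBS and 88.83 with exosomes (log2 fold change 2.12, counting interval 2.04 to 2.20). Snrpd3 was at 10.46 and 44.31 RPKM, 4.24-fold higher. Snrpe was at 8.56 and 32.85 RPKM, 3.84-fold higher. Snrpd2 had the smallest difference within the ring, with 8.48 and 20.17 RPKM (log2 fold change 1.25). All 7 ring genes above the minimum were thus called up, and their summed RPKM was 58.4 in PBS and 237 with exosomes, a ratio of 4.07. The highest of the 7 exceeded the lowest 49.9 times in PBS and 25.9 times with exosomes. The eighth gene of this type, Snrpn, whose SmN protein closely resembles SmB and is known from neurons, was listed at 0 in both libraries. At a transcript length of 1932 bases, 3 reads would have given 0.0235 RPKM in PBS and 0.0196 with exosomes.

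Among the Snrp genes for proteins particular to one snRNP, those of U2 were also called up. Snrpa1, which encodes U2 protein A′, was at 1.12 and 7.17 RPKM (log2 fold change 2.68, counting interval 2.37 to 3.01), and Snrpb2, which encodes its partner B″, was at 1.85 and 7.52 RPKM (log2 fold change 2.02). The U1 proteins differed from each other. Snrpa, which encodes U1 protein A, was at 1.78 and 6.72 RPKM, 3.78-fold higher, whereas Snrpc, which encodes U1 protein C, was at 27.82 and 42.46 RPKM (log2 fold change 0.61, counting interval 0.52 to 0.71). Snrpc was the only Snrp gene above the minimum that stayed below 2-fold, and it had the highest level of the family in PBS. The family held 4.77% of the summed RPKM of the 59 genes in PBS and 11.6% with exosomes. Several of these small genes, Snrpe and Snrpg among them, and Hnrnpa1 have processed pseudogenes of similar sequence, and how reads shared with such copies were assigned is not stated.

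The other components of the U2 snRNP differed among themselves. Of the SF3a genes, Sf3a1 was at 1.40 and 4.85 RPKM (log2 fold change 1.79) and Sf3a3 at 6.13 and 16.46 RPKM (log2 fold change 1.43), both called up. Sf3a2 stayed below the limit, at 15.08 and 22.22 RPKM. Of the SF3b genes only Sf3b3, at 6.96 and 14.94 RPKM, was called up, with a log2 fold change of 1.10. Sf3b5 and Sf3b4 had log2 fold changes of 0.85 and 0.78. The most highly expressed subunits lay lowest. Sf3b2 was at 83.02 and 102.22 RPKM (log2 fold change 0.30), and Sf3b1 (chromosome 1, 54985169 to 55027481, minus strand), the subunit that contacts the branch point region, was at 140.6 RPKM in PBS and 106.14 with exosomes, or -0.41 on the log2 scale (counting interval -0.42 to -0.39). Sf3b1 was thus 100 times the level of Sf3a1 in PBS and 21.9 times with exosomes.

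Of the Prpf genes, Prpf19, which encodes the ubiquitin ligase of the complex named after it, was at 1.16 and 5.43 RPKM (log2 fold change 2.23, counting interval 1.99 to 2.48). Prpf31 and Prpf3, both tri-snRNP proteins, were at 1.85 and 6.24 RPKM and at 3.18 and 6.51 RPKM. The ratio of Prpf3 was 2.05, and its counting interval of 0.89 to 1.18 on the log2 scale includes the 2-fold limit. The kinase gene Prpf4b was at 8.41 and 19.61 RPKM, 2.33-fold higher. Prpf8, the large protein at the catalytic centre, was at 27.77 and 38.57 RPKM (log2 fold change 0.47). Prpf6 and Prpf38b were slightly lower with exosomes, with log2 fold changes of -0.075 and -0.064. Prpf4, Prpf18, Prpf38a and Prpf39 had log2 fold changes between 0.072 and 0.91. Prpf40b was just outside the minimum, with 0.20 RPKM in PBS and 0.25 with exosomes.

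Among hnRNPs the A/B/D group lay above the F/H group. In the first, 4 of 6 genes were called up with a median log2 fold change of 1.06. In the second, 0 of 4 were, with a median of 0.22, beside 31.5% up among all genes. Both groups were chosen after the data were seen. The A/B/D genes also had a lower median level in PBS, 17.995 RPKM against 55.74 for F/H. With the median of genes of like level subtracted, the A/B/D genes lay between 0.44 and 1.55 and the F/H genes between -0.08 and 0.21. Hnrnpa1 (chromosome 15, 103240432 to 103246692, plus strand) was at 15.24 and 50.11 RPKM (log2 fold change 1.72, counting interval 1.64 to 1.79). Hnrnpab and Hnrnpd had log2 fold changes of 1.24 and 1.12. Hnrnpa3 was at 5.45 and 10.99 RPKM, a ratio of 2.02 whose counting interval includes the 2-fold limit. Once the all-gene median was subtracted, Hnrnpa1 was at 1.19, while Hnrnpab, Hnrnpd and Hnrnpa3 were below the limit at 0.71, 0.59 and 0.49. The close relative Hnrnpa2b1, at 82.93 and 113.38 RPKM, had a log2 fold change of 0.45, and Hnrnpa0 had 0.78. Hnrnpf, Hnrnph1 and Hnrnph2 stayed between 0.16 and 0.22, and Hnrnph3 was at 0.48, all below the all-gene median of 0.53.

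Of the remaining 8 hnRNP genes only Hnrnpr was called up, at 4.74 and 16.69 RPKM, 3.52-fold higher. Hnrnpm and Hnrnpul1 had log2 fold changes of 0.84 and 0.46. The most abundant, Hnrnpk, was at 146.67 and 185.54 RPKM (log2 fold change 0.34), and Hnrnpu, which also binds chromatin, at 122.31 and 148.31 RPKM (log2 fold change 0.28). Hnrnpl had a log2 fold change of 0.22, and Hnrnpul2, the second lowest of the family, had 0.060. Hnrnpc (chromosome 14, 52073377 to 52104028, minus strand), which binds uridine tracts in nascent transcripts, was lower with exosomes, at 80.28 and 59.67 RPKM (log2 fold change -0.43). It was the largest decrease among the 59 genes and did not reach the 2-fold limit. The median of the Hnrnp family, 0.45 as deposited, turned to -0.072 when the median of all genes was set to 0 and to -0.087 when a trimmed mean of log ratios was removed.

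SR protein genes differed least among themselves, with a standard deviation of log2 fold changes of 0.44 across 10 genes, against 0.59 to 0.71 in the other families. Srsf9 (12.89 and 30.63 RPKM) and Srsf10 (7.17 and 16.05 RPKM) were called up, with log2 fold changes of 1.25 and 1.16. Srsf3, at 12.78 and 24.99 RPKM, was just below the limit with a ratio of 1.96. Srsf2 was at 47.24 and 63.20 RPKM (log2 fold change 0.42). Srsf5 had the highest level of all 59 genes, 229.62 RPKM in PBS and 246.89 with exosomes (log2 fold change 0.10). Srsf1, a founding member of the group, was at 25.53 and 24.59 RPKM (log2 fold change -0.054). Srsf12 stood at 0.02 RPKM in both libraries and was not counted. The rest, Srsf4, Srsf6, Srsf7 and Srsf11, had log2 fold changes between 0.37 and 0.77.

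Across the 59 genes the fold change went with the level. Genes low in PBS changed most: Spearman's rho between PBS RPKM and log2 fold change was -0.78 over 59 genes and -0.46 over the 9559 genes with a transcript length, where both measures share the PBS value and genes are not replicates. Against the geometric mean of both libraries rho was -0.68 and -0.28, and against the exosome RPKM -0.52 and -0.094. Within each family the highest and lowest levels lay closer together in the exosome library. The highest exceeded the lowest 67.9 times in PBS and 25.9 times with exosomes in Snrp, and 24.1 and 8.75 times in Prpf. In Srsf it did so 32.0 and 15.4 times, and in Hnrnp 30.9 and 22.5 times. Counts were then set beside all genes of like level, taking the geometric mean RPKM of both libraries. Below 5 RPKM 9 of 10 splicing genes were up, against 46.6% of all genes. From 5 to 20 RPKM 11 of 20 were up, against 25.4%, and from 20 to 50 RPKM 4 of 15, against 14.1%. At 50 RPKM or more 0 of 14 were up, against 10.8%. These counts include the Snrp family, in which 10 of 11 genes were up. Below 5 RPKM, Snrpf, Snrpa1, Snrpd1, Snrpb2 and Snrpa were among the 9 genes up. From 5 to 20 RPKM, Snrpg, Snrpe and Snrpd2 were among the 11 up. From 20 to 50 RPKM, Snrpb and Snrpd3 were among the 4 genes up. The bands were not counted without this family.

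**Figure D3:**
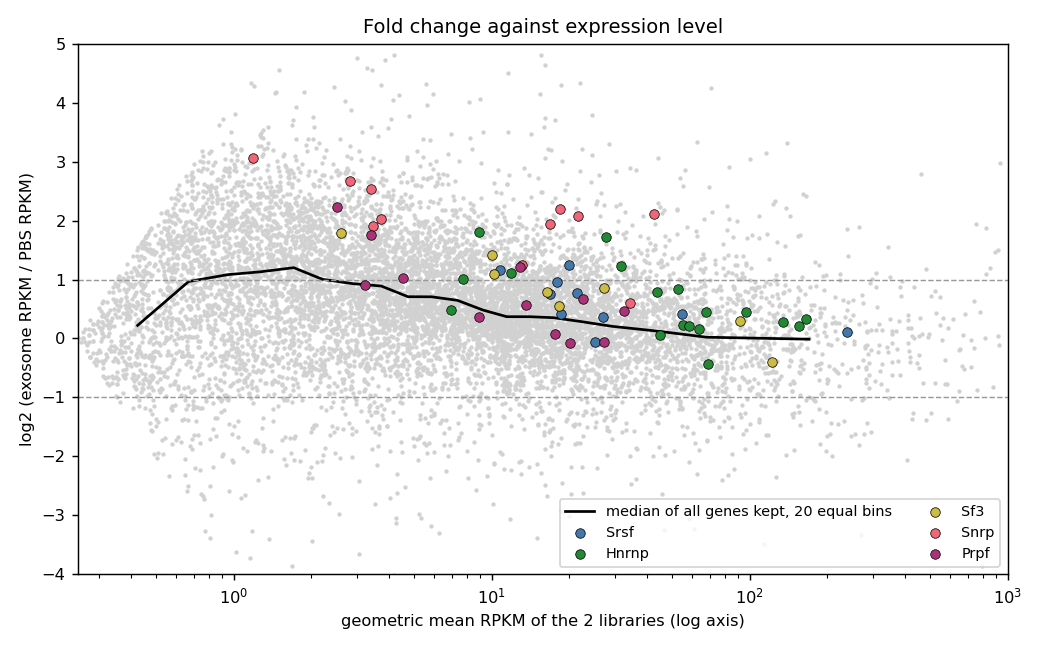
Log2 of the exosome over the PBS RPKM (y axis) against the geometric mean RPKM (x axis, log scale) for all genes kept (grey; genes beyond the axes are not drawn), their median in 20 equal bins (black line) and the 59 genes by family (colours). All Snrp points lie above the line, and the line, after a rise at the lowest levels, falls towards 0 at high levels.

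Transcript length differed between the families as well. The 11 Snrp transcripts were short, with a median of 1161 bases (503 to 3036), beside 2837 for all genes. Among all genes with a transcript under 1000 bases 41.6% were up, with a median log2 fold change of 0.73. Among the 3464 other genes inside both the length range and the level range of the Snrp family, 38.7% were up and the median was 0.73, below the 90.9% and 2.08 of Snrp. Spearman's rho between length and log2 fold change was -0.35 over the 59 genes, -0.11 over the 9559 genes with a length, and -0.019 over the 48 genes of the other families. When the median of genes of like level was subtracted, the Snrp median was 1.63 and 9 of its genes were still up at least 2-fold, with the other family medians between 0.25 and 0.50. In that setting 13.3% of all genes were up.

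Promoter windows were inspected because the Snrp genes were higher together. RefSeq windows (GRCm38.p6) of 250 bases before and 50 after the start were found for 52 of the 59 genes, 9 of them Snrp genes. The upstream 250 bases are shown for Snrpf, with the largest increase, for Snrpg and Snrpb2, both more than 4-fold higher, for Snrpc, the Snrp gene below the limit, and for Sf3b2, which changed little. Capitals mark matches to CCGGAAG, a core sequence bound by ETS factors, on either strand. The RefSeq starts of Snrpf, Snrpg, Snrpb2 and Snrpc lie downstream of the first base of their GENCODE gene models, so these stretches lie partly, and that of Snrpc wholly, inside the gene models.
Snrpf (chr10:93589659-93589908, minus strand): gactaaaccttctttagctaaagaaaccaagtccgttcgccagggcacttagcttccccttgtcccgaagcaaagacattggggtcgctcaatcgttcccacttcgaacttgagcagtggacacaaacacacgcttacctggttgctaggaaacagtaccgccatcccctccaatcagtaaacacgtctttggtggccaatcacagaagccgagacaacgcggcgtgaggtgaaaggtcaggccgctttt
Snrpg (chr6:86371290-86371539, plus strand): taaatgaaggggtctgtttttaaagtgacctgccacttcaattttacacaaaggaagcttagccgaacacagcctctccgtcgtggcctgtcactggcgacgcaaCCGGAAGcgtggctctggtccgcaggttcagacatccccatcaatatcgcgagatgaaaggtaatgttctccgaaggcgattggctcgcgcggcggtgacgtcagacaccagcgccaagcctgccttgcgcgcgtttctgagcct
Snrpb2 (chr2:143062819-143063068, plus strand): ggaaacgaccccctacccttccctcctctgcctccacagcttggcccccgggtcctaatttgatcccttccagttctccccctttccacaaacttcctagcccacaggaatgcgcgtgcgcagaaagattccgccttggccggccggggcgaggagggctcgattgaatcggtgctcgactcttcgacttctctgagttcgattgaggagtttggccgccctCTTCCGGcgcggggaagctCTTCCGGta
Snrpc (chr17:27839837-27840086, plus strand): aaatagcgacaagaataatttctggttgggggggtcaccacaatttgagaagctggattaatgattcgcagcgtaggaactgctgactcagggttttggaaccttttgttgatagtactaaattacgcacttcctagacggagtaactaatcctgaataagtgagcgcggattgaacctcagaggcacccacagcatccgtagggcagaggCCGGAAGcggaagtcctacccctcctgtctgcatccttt
Sf3b2 (chr19:5295458-5295707, minus strand): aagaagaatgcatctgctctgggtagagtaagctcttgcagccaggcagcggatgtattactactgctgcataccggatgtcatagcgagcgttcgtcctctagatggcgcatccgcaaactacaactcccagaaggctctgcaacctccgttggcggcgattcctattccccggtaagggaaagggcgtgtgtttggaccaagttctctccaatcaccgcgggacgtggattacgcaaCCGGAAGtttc

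The ETS core was found in 4 of 9 Snrp genes (Snrpb2, Snrpc, Snrpe and Snrpg) and in 5 of 6 Sf3 genes, which had different fold changes. It was in 10 of 22 genes called up and in 9 of 30 genes within 2-fold, or in 38.5% and 33.3% of their windows. By window the share was 35.3% of those of the splicing genes, 19.2% of those of all genes kept and 8.86% of all 32851 windows. Snrpf, with the largest increase, had no match. The other motifs were also searched on both strands, and none of them holds another. The cyclic AMP response element TGACGTCA lay in 2 Snrp promoters, Snrpa and Snrpg, and in no other splicing gene, beside 1.79% of all windows and 3.24% of those of genes kept. The E-box CACGTG was in 1 of 9 Snrp genes, in 7.15% of all windows and in 10.4% of those of genes kept. The GC box GGGCGG was in 5 Snrp genes and 50% of their windows, below the 62.7% of windows of genes kept, and in 35.7% of all windows. The CCAAT box was in 3 Snrp genes, Snrpd3, Snrpf and Snrpg, in 37.4% of all windows and in 37.8% of those of genes kept. The TATA box TATAAA was in 1 Snrp gene, in 13.6% of all windows and in 6.85% of those of genes kept. GCGCNTGCG, the core of NRF1 sites, was in 2 Snrp genes and 25% of the windows of the splicing genes, beside 6.31% of all and 14.1% of those of genes kept. AAGATGGCG, a YY1 site, was in 0 Snrp genes, in 1.40% of all windows and in 3.40% of those of genes kept. A match describes letters only, and binding was not measured.

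Other genes of the splicing machinery were taken from lists and not by name family. Of 119 listed genes 114 passed the minimum. Of these 38 (33.3%) were up and 2 down (20 and 6 once the all-gene median was subtracted, beside 16.8% up among all genes). The 33.3% is close to the 31.5% up among all genes as deposited, against which the counts of single lists are also to be read. Of further snRNP proteins, 9 of 14 were up, with a median log2 fold change of 1.27, led by the minor spliceosome genes Snrnp35 (0.82 and 5.06 RPKM) and Snrnp25 (0.58 and 3.28 RPKM) and by Eftud2, a U5 GTPase (3.05 and 12.37 RPKM). The U1 gene Snrnp70, at 54.31 and 76.82 RPKM, and Snrnp200, a U5 helicase, at 21.39 and 27.00 RPKM, stayed below the limit. Of 7 LSm genes, whose products form the ring of U6 and a ring in mRNA decay, 4 were up, and Lsm7 was 7.64-fold higher. All list medians lay below the 2.12 of the Sm ring.

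The SMN complex and its partners, which load Sm rings, had 6 of 10 genes up. Clns1a was at 1.42 and 7.44 RPKM and Prmt5, which methylates Sm proteins, at 0.58 and 2.63 RPKM. Smn1 itself was at 10.96 and 10.70 RPKM, and Wdr77, the partner of Prmt5, was lower with exosomes, at 26.28 and 16.42 RPKM. Genes of the same assembly step thus lay on both sides of a ratio of 1. Of 7 exon junction complex genes 5 were up, among them Magohb (5.13-fold), and of 15 genes of the Prpf19 complex and its partners 6 were up, led by Ppil1 (0.35 and 3.27 RPKM).

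Regulators and kinases lay lower. Of 14 SR kinases and SR-related genes 0 were up, and Srpk2, a kinase of SR proteins, was called down, at 31.61 and 12.03 RPKM (log2 fold change -1.39). Clk4, Clk1 and Clk3 had log2 fold changes of -0.75, -0.59 and -0.34, whereas the kinase genes Clk2 and Srpk1 had 0.098 and 0.59. Of 11 helicase and second-step genes 2 were up, Aqr and Dhx15, and Ddx39b, which also serves mRNA export, was called down, at 164.94 and 53.54 RPKM. Splice site recognition had 2 of 12 up, U2surp and U2af1. Other regulators had 4 of 24 up, among them Ptbp1 at 8.81 and 26.18 RPKM, while Hnrpll and Hnrpdl, hnRNP genes under older names that the name rule does not take, had log2 fold changes of -0.68 and 0.56.

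**Figure D4:**
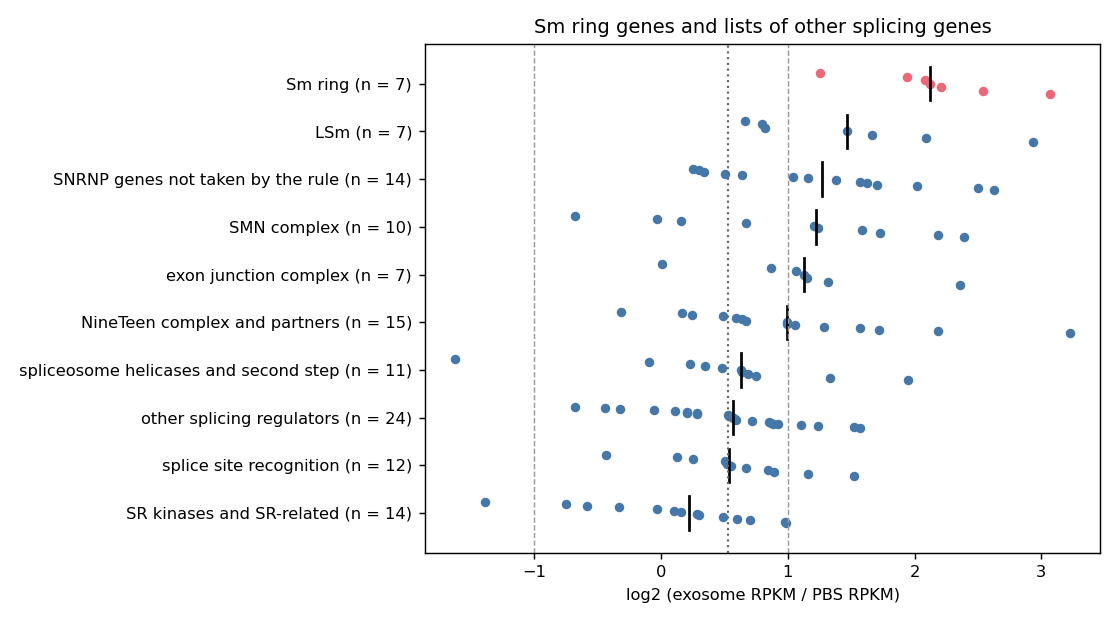
Log2 of the exosome over the PBS RPKM (x axis) for the 7 Sm ring genes and for 9 lists of other splicing genes (points, each a gene above the minimum), with list medians as black lines, 2-fold limits dashed and the median of all genes kept, 0.53, dotted. The Sm ring median of 2.12 is to the right of all list medians. The lowest, 0.22, is that of the list of SR kinases and SR-related genes.

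**Figure D5:**
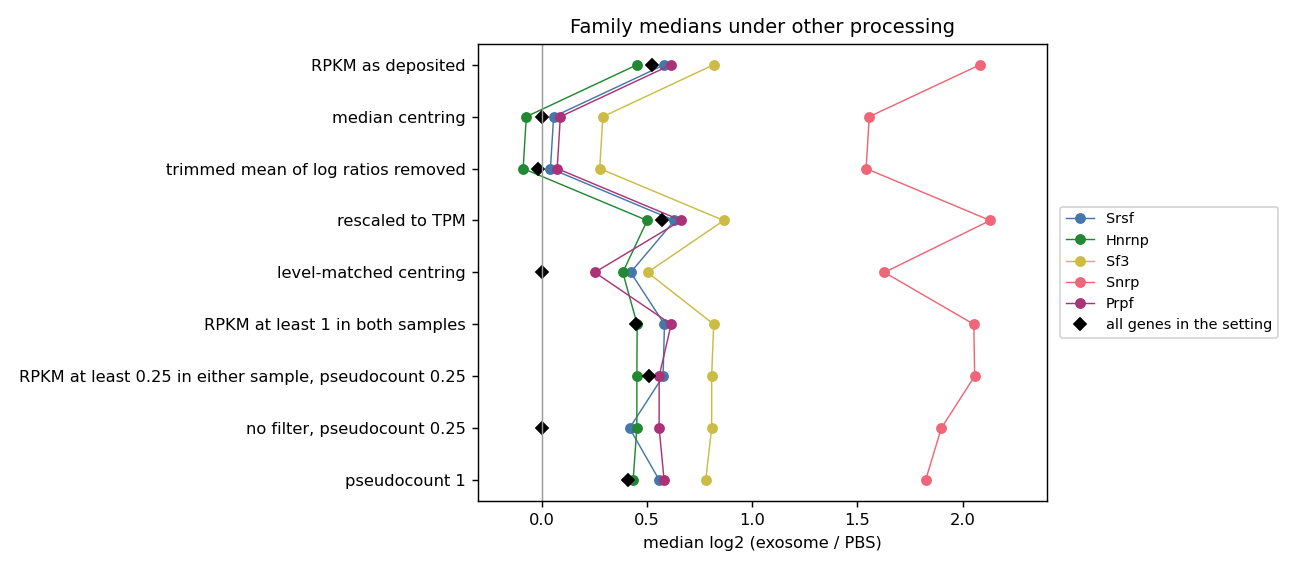
Median log2 of the exosome over the PBS value (x axis) for each family (coloured points, joined by lines to guide the eye) and for all genes (black diamonds) under the deposited scaling and 8 alternatives (rows). The Snrp median stays between 1.54 and 2.13 in all of them, while the Hnrnp median is below 0 after median centring and after removal of the trimmed mean.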

How the data were processed

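Neutrophil mRNA libraries (TruSeq, HiSeq 2500) of 1 PBS-treated and 1 exosome-treated culture were analysed. The authors trimmed reads at a Phred score of 20 and used CLC Genomics Workbench v8.0 to make the deposited RPKM, 1 value for each feature; the build is mm10 per the labels, while the annotation, the handling of reads shared between genes and any scaling between libraries are not given in the sources used here. Commas inside values were removed, and 25 features named by a date serial stayed unnamed. The name rule, members, gene lists and named genes (per family the 3 highest and 2 lowest ratios, the 2 highest levels, all calls and the Sm and SF3 genes) were chosen with earlier results of these data known. The other members and list genes named were added after their values were seen. Motifs, promoters shown and role groups were also chosen after seeing the data.

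Depth was read from values under 0.01 RPKM that stand for 1 read, using 1 GENCODE M21 transcript a gene (GRCm38, the assembly mm10 names; the transcript linked to the oldest RefSeq accession): 292 of 995 such features in PBS and 339 of 1159 with exosomes gave one total within 1%. Without lengths, the ratio of depths was 1.20. Counting intervals are exact Clopper-Pearson 95% intervals of these estimated reads and cover counting error only. The values of 1 kept Prpf gene are not reported here, though its family's counts and medians include it. No test was run, since each group holds 1 library. The code was tested on simulated data. Python 3.11.15, pandas 2.3.3 and SciPy 1.17.1 were used.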

Additional observations from a re-analysis of the deposited data

How the results depend on the processing

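No paired analysis was possible because each group holds 1 library, and no replicate could be left out. The median log2 ratio of all genes, 0.53 as deposited, is 0 after median centring and -0.015 after a trimmed mean was subtracted (30% of ratios and 5% of means left out at each end). Either setting left 14 splicing genes up, with 0 Srsf, 2 Hnrnp, 1 Sf3 and 2 Prpf, and 20 up and 6 down in the other splicing lists; the medians were 0.26 and 0.24 for all members, 0.057 and 0.042 for Srsf, and -0.072 and -0.087 for Hnrnp, whose direction reversed. Level-matched centring left 13 up, with 0 Srsf, 3 Hnrnp, 0 Sf3 and 1 Prpf, a median of 0.45 and 16 up in the other lists. A ratio of 4 left 8 up, with 0 Srsf, 0 Hnrnp, 0 Sf3 and 1 Prpf, and 10 up and 0 down in the other lists. Among all genes 16.8% were up after median centring and 16.4% after the trimmed mean was subtracted. The share of all genes was 13.3% after level-matched centring and 8.52% at a ratio of 4. The Snrp count stayed between 7 and 10 in all 9 alternatives. Of the 24 genes up, 12 were at least 2-fold higher in each of the 8 alternatives that test a ratio of 2 (Snrpf in the 7 that keep it): 9 Snrp genes, Hnrnpr, Hnrnpa1 and Prpf19. The sign changed in at least one alternative for 18 of 59 genes: 10 Hnrnp, 3 Prpf, 4 Srsf and 1 Sf3. Neither sign changes nor genes up in every alternative were counted over all genes, so the 12 have no share of all genes beside them. The cause was not tested. Rescaling to TPM, the other RPKM minima and the pseudocounts of 0.25 and 1 kept the counts of members within 1.5 times.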
